A study of Mus musculus with 18 samples.

Results

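Thyroid and adrenal genes, whose products are known targets of endocrine autoimmunity or steps of the same hormone pathways, were followed in thymic epithelium: the thyroid genes Tg, Tshr, Iyd and Slc5a5, and the steroid synthesis genes Cyp11a1, Cyp11b1, Cyp17a1 and Cyp21a1. They were chosen by symbol, and all 8 members were found among the 23063 genes measured. RNA was sequenced from sorted medullary thymic epithelial cells of a hi gate (mTEChi) and a lo gate (mTEClo) and from cortical thymic epithelial cells (cTEC), each from Aire knockout (KO) and wild-type (WT) mice of 6 to 8 weeks of age. Each of the 6 groups had 3 libraries, so there were 18 in all. The strain label was B6.129S2-Airetm1.1Doi/J for every group, WT groups included. The labels named neither the surface protein behind the lo and hi gates nor whether the replicates of a group were separate mice. P-values therefore measure only the spread between these libraries.

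Medullary thymic epithelium transcribes many genes whose products otherwise belong to single organs, and developing T cells that bind these products strongly are deleted or diverted. Aire, a nuclear protein of mature medullary cells, is needed for much of this transcription, and loss of AIRE in humans causes an autoimmune polyendocrine syndrome in which adrenal failure is common. In the thyroid, Slc5a5 brings iodide into the follicular cell, thyroglobulin (Tg) carries the iodinated tyrosines that become hormone, Iyd recovers iodide from unused ones, and Tshr receives the pituitary signal. In the adrenal cortex and gonads, Cyp11a1 begins steroid synthesis by cleaving the side chain of cholesterol, Cyp17a1 leads towards androgens, Cyp21a1 acts on the route to corticosteroids, and Cyp11b1 makes the final product corticosterone in mice.

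The 18 libraries held 4.54 to 18.1 Gb of bases aligned to genes. Levels are RPKM, which are per length of gene and per depth of library, and differences are of log2(RPKM + 0.1). A gene was called when limma's Benjamini-Hochberg adjusted p over 19451 genes was under 0.05. Aire itself averaged 1073 ± 64.5 RPKM in KO mTEChi and 677 ± 17.9 RPKM in WT mTEChi (SD, n = 3 each), 23.6 ± 8.64 RPKM in KO mTEClo and 9.90 ± 2.62 RPKM in WT mTEClo, and 95.6, 35.9 and 27.0 RPKM in KO cTEC against 2.09, 3.95 and 7.39 RPKM in WT cTEC. A single value for the whole gene does not separate the targeted part of Aire from the rest, so it does not check the genotype. The cortical marker Psmb11 was at 10.1 to 20.5 RPKM in KO cTEC and 11.3 to 21.8 RPKM in WT cTEC, and the epithelial markers Foxn1 and Epcam were present in every library. RNA of other cell types was also present, and summed levels of some marker lists are given beside the results.

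In mTEChi, 6 of the 8 genes were lower in KO than in WT, Slc5a5 was higher, and Cyp17a1 was not called. After quantile normalization, which forces all libraries to one distribution, 3 of the 8 were called lower (Iyd, Cyp11a1 and Cyp11b1) and 2 higher (Slc5a5 and Cyp17a1). Tg and Tshr then changed sign, and Cyp21a1 was not called. Over all genes tested in the same comparison, 52.8% were called lower and 9.57% higher, and the median log2 difference was -0.39, while that of the 8 genes was -2.03. After quantile normalization 24.7% of all genes were called lower and 31.2% higher, and the median of all genes was at 0.08. Of the 8 genes, 2, Cyp11b1 and Cyp21a1, reached 0.1 RPKM in WT mTEChi only, so they entered the test only through the group in which they are high.

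**Figure D1:**
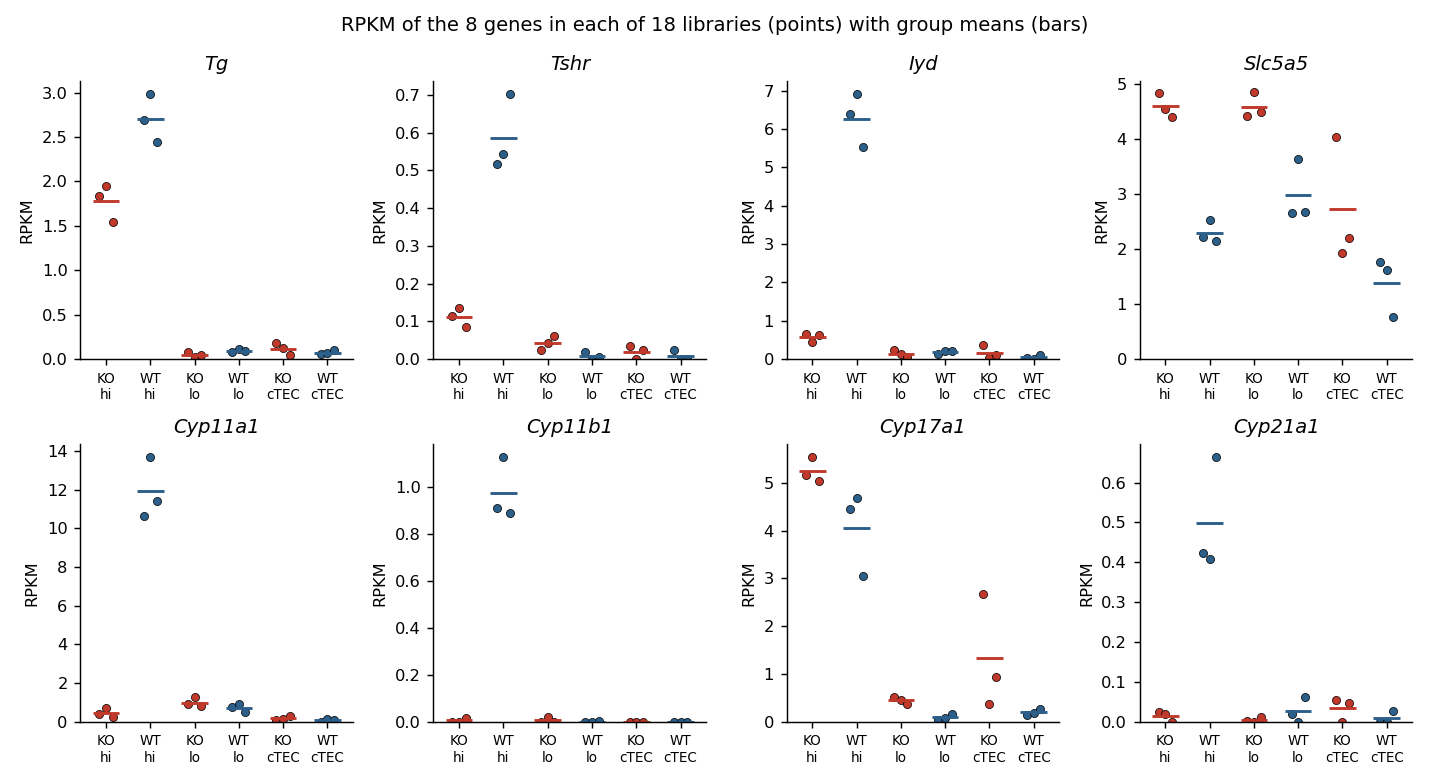
RPKM of the 8 genes in each of the 18 libraries (points) with group means (bars). The vertical axis is linear, starts at 0 and differs between panels. In mTEChi, red KO points lie below blue WT points for 6 genes, and above them for Slc5a5 (4.40 to 4.83 RPKM in KO, 2.14 to 2.53 RPKM in WT) and Cyp17a1.

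Among the thyroid genes, Tg is the largest, with 48 exons in its longest annotated transcript and a span of chr15:66670770-66850720 on the plus strand (mm10). Tg had 1.84, 1.95 and 1.55 RPKM in KO mTEChi, against 2.70, 2.98 and 2.44 RPKM in WT mTEChi. All KO libraries lay below all WT libraries, and the KO mean was 65.8% of the WT mean. The log2 difference was -0.58 (SE 0.24, limma adjusted p = 0.043), which is -0.19 relative to the median of all genes. This call was not kept throughout, since adjusted p was 0.053 to 0.14 without any one of the 3 KO libraries or without WT replicate 1 or 2, and 0.28 with 0.01 RPKM added in place of 0.1. After quantile normalization the difference was 0.36 (adjusted p = 0.15), with the opposite sign.

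Tshr, the receptor for thyroid-stimulating hormone and the target of stimulating antibodies in human Graves disease, lies at chr12:91400993-91540509 (plus strand). It had 0.113, 0.135 and 0.086 RPKM in KO mTEChi, against 0.516, 0.543 and 0.702 RPKM in WT mTEChi. The groups did not overlap, and the KO mean was 18.9% of the WT mean. Tshr thus differed by -1.70 on the log2 scale (SE 0.17, limma adjusted p = 3.7e-07), and this turned to 0.09 (adjusted p = 0.73) after quantile normalization. These low levels still rested on 4752 to 10318 aligned bases per KO library and 36768 to 73660 per WT library.

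Iyd, the iodotyrosine deiodinase that recycles iodide, lies at chr10:3540279-3554877 (plus strand). It had 0.665, 0.458 and 0.618 RPKM in KO mTEChi, against 6.38, 6.91 and 5.53 RPKM in WT mTEChi. Every WT library was far above every KO library, and the KO mean was 9.24% of the WT mean. On the log2 scale the difference was -3.24 (SE 0.40, limma adjusted p = 4e-06), the largest fall among the 4 thyroid genes with the RPKM as deposited.

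Slc5a5, the sodium-iodide symporter of the follicular cell, lies at chr8:70882889-70892757 (minus strand) and moved the other way. It had 4.83, 4.54 and 4.40 RPKM in KO mTEChi, against 2.22, 2.53 and 2.14 RPKM in WT mTEChi. The groups did not overlap, and the KO mean was 199.9% of the WT mean. The log2 difference was 0.97 (SE 0.27, limma adjusted p = 0.0052), which is 1.37 relative to the median of all genes, and 2.09 after quantile normalization.

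Among the steroid synthesis genes, Cyp11a1 was the highest in WT mTEChi on the RPKM scale. Its log2 difference was the largest of the 4 with 0.1 RPKM added, but with 0.01 RPKM added that of Cyp11b1 was larger (-6.13 for Cyp11b1, -4.79 for Cyp11a1). Cyp11a1 (chr9:58015017-58027023, plus strand) had 0.387, 0.703 and 0.266 RPKM in KO mTEChi, against 10.6, 13.7 and 11.4 RPKM in WT mTEChi. The KO mean was 3.79% of the WT mean, with no overlap. The difference was -4.51 on the log2 scale (SE 0.36, limma adjusted p = 2.9e-08).

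Cyp11b1, the enzyme of the last step to corticosterone, lies at chr15:74834892-74841643 (minus strand). It was listed at 0, 0 and 0.017 RPKM in KO mTEChi, against 0.909, 1.13 and 0.887 RPKM in WT mTEChi. Only KO replicate 3 had any aligned bases on it, and the KO mean was 0.597% of the WT mean. The log2 difference was -3.34 (SE 0.13, limma adjusted p = 7.5e-12), a value that depends on the added 0.1 RPKM and is no bound. Its close relative Cyp11b2, which makes aldosterone and sits 9367 bases away, averaged 0.125 RPKM in KO mTEChi and 0.861 RPKM in WT mTEChi (log2 difference -2.11, adjusted p = 1.3e-08). How reads shared by these paralogs were assigned is not given in the sources used here, so the share of each is uncertain.

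Cyp21a1 encodes the steroid hydroxylase that is the main adrenal autoantigen in human Addison disease, and lies at chr17:34801348-34804426 (minus strand). It had 0.024, 0.019 and 0 RPKM in KO mTEChi, against 0.423, 0.409 and 0.664 RPKM in WT mTEChi. The groups did not overlap, and the KO mean was 2.90% of the WT mean. The log2 difference was -2.37 (SE 0.22, limma adjusted p = 1.4e-07), and was -0.57 (adjusted p = 0.06) after quantile normalization. The locus stands in a duplicated region beside C4a and C4b, so reads of near-identical copies cannot be told apart here.

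Cyp17a1, the hydroxylase and lyase on the route to androgens, lies at chr19:46667165-46673000 (minus strand) and was the exception among the steroid genes. It had 5.17, 5.55 and 5.03 RPKM in KO mTEChi, against 4.46, 4.68 and 3.05 RPKM in WT mTEChi. The KO libraries lay just above the WT libraries without overlap, and the KO mean was 129% of the WT mean. The log2 difference of 0.39 (SE 0.44, 95% interval -0.56 to 1.33) was not called (limma adjusted p = 0.47). It was called after quantile normalization (1.02, adjusted p = 0.039).

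Markers of other cell types were counted in the same comparison, in which 52.8% of all genes were called lower and 9.57% higher. The 10 thymocyte markers, led by Lck, summed to 16.7 to 31.1 RPKM in KO mTEChi and 44.2 to 72.6 RPKM in WT mTEChi, and 6 of them were called lower. The 9 dendritic cell and macrophage markers, led by Lyz2, summed to 368 to 398 RPKM in KO mTEChi and 347 to 376 RPKM in WT mTEChi, with 6 called lower and 1 higher. The sums of 6 B cell markers (24.9 to 27.0 RPKM in KO, 25.7 to 28.6 RPKM in WT; 2 called lower), of 7 fibroblast markers (36.9 to 46.8 RPKM in KO, 44.5 to 49.3 RPKM in WT; 5 called lower and 1 higher) and of 5 endothelial markers (6.20 to 8.49 RPKM in KO, 8.23 to 12.7 RPKM in WT; 2 called lower) overlapped between genotypes. The 7 markers of parathyroid and thyroid C cells, endocrine cells of the thyroid region, summed to 52.6 to 60.5 RPKM in KO mTEChi and 120 to 139 RPKM in WT mTEChi, and 2 were called lower. No marker of these lists was at 0 in all mTEChi libraries of a genotype, apart from 1 parathyroid or C cell marker in KO. Their part in the 8 genes' differences was not tested. In such bulk libraries, fewer cells of a type and less RNA per cell cannot be told apart.

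RefSeq promoter windows (GRCm38.p6) were matched for 3 of the 8 genes and are shown because one of these genes, Slc5a5, moved opposite to Iyd and Cyp11a1 in KO mTEChi. Each window runs 5′ to 3′ on the gene's strand from 250 bases before the annotated start to 30 bases after it, and capitals mark matches to TATAA or CCAAT on either strand. The Iyd window is chr10:3540024-3540303 (plus strand), the Slc5a5 window is chr8:70892728-70893007 (minus strand), and the second Cyp11a1 window, the one next to the gene's start in the tables, is chr9:58014702-58014981 (plus strand).
Iyd: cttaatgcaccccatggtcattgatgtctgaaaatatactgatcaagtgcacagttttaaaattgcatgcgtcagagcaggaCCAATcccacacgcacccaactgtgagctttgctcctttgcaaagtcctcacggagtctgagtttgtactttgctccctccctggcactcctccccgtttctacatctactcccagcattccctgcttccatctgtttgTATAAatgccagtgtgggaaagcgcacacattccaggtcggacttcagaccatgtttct
Slc5a5: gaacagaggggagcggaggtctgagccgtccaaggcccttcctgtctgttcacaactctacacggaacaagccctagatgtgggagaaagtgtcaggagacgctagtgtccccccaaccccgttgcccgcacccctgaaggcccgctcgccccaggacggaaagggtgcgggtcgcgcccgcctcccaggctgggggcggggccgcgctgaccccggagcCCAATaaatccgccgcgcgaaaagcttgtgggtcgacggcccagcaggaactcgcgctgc
Cyp11a1: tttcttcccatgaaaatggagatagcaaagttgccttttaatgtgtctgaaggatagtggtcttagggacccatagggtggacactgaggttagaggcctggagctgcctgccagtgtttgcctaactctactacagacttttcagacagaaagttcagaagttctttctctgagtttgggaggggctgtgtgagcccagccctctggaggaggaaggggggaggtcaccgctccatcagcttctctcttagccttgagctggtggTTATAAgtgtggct

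In these windows Iyd had TATAA beginning 29 bases before the start and CCAAT 168 bases before it, and Slc5a5 had CCAAT 30 bases before it and no TATAA. Cyp11a1 had TATAA beginning 18 bases after the start, overlapping a match on the other strand. Of 32851 RefSeq windows of the same length, 24% held TATAA and 36.1% held CCAAT, and none of the printed windows held AAGGTCA, a nuclear receptor motif, which 4.46% of windows held. The Slc5a5 window held 25 CG pairs and 67.1% G or C, more CG pairs than 84.6% of all windows. The Iyd window held 6 CG pairs and the printed Cyp11a1 window 1, where the median over all windows was 6. The first Cyp11a1 window, not printed, held 6 CG pairs and CCAAT 24 bases before its start.

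In mTEClo, 1 of the 8 genes, Cyp17a1, was called higher in KO and none lower, beside 7.93% of all genes called higher and 8.04% lower. At an unadjusted p under 0.05, limma gave 3 higher and 0 lower. Cyp17a1 had 0.520, 0.459 and 0.371 RPKM in KO mTEClo, against 0.045, 0.076 and 0.156 RPKM in WT mTEClo. The groups did not overlap, and the log2 difference was 1.55 (SE 0.44, limma adjusted p = 0.027). The call was lost with 1 RPKM added (0.41, adjusted p = 0.28) and without KO replicate 1 or 2 or WT replicate 1 or 2 (adjusted p = 0.061 to 0.10).

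Slc5a5 had 4.41, 4.84 and 4.49 RPKM in KO mTEClo, against 2.65, 3.63 and 2.68 RPKM in WT mTEClo. All KO libraries were above all WT libraries, but the log2 difference of 0.62 (SE 0.27, limma adjusted p = 0.14) was not called in the fit over all 18 libraries. It was called when only the mTEClo libraries were fitted (adjusted p = 0.039). Cyp11a1, the other steroid gene with a clear level in this gate, had 0.892, 1.26 and 0.790 RPKM in KO mTEClo, against 0.748, 0.908 and 0.482 RPKM in WT mTEClo, and these overlapped (log2 difference 0.42, adjusted p = 0.48). Tshr was at most 0.061 RPKM in KO mTEClo and 0.019 RPKM in WT mTEClo (log2 difference 0.39, adjusted p = 0.14), Tg was at most 0.081 RPKM in KO mTEClo and 0.116 RPKM in WT mTEClo, and Iyd at most 0.224 RPKM in KO mTEClo and 0.220 RPKM in WT mTEClo. Cyp11b1 and Cyp21a1 were at or near 0 in this gate in both genotypes. The activation marker Cd80, a mark of mature medullary cells, was at 4.87 to 6.76 RPKM in KO mTEClo and 2.92 to 3.84 RPKM in WT mTEClo. The medullary factor Fezf2 went the other way, at 40.3 to 56.8 RPKM in KO mTEClo and 57.0 to 69.0 RPKM in WT mTEClo. The 9 dendritic cell and macrophage markers summed to 72.4 to 142 RPKM in KO mTEClo and 30.8 to 37.1 RPKM in WT mTEClo, with 2 called higher and none lower. Lyz2 led this sum (mean 88.0 RPKM in KO mTEClo, 25.9 RPKM in WT mTEClo). The 6 B cell markers, led by Cd79b, summed to 28.8 to 32.5 RPKM in KO mTEClo and 17.4 to 22.8 RPKM in WT mTEClo, with 1 called higher and 1 lower. Their part in the Cyp17a1 and Slc5a5 differences was not tested.

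In cTEC, Slc5a5 and Cyp17a1 were called higher in KO and none of the 8 genes lower, beside 13.3% of all genes called higher and 6.76% lower (11.4% and 11.1% after quantile normalization). The count at an unadjusted p under 0.05 in limma was the same, 2 higher and 0 lower. Cyp17a1 had 2.68, 0.371 and 0.937 RPKM in KO cTEC, against 0.139, 0.184 and 0.275 RPKM in WT cTEC. Each KO library exceeded each WT library, with KO replicate 1 the highest, and the log2 difference was 1.91 (SE 0.44, limma adjusted p = 0.0061). With each library left out in turn it lay between 1.25 and 2.53 and remained called.

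Slc5a5 had 4.03, 1.93 and 2.20 RPKM in KO cTEC, against 1.76, 1.61 and 0.760 RPKM in WT cTEC. The groups came close without overlap, and the log2 difference was 0.94 (SE 0.27, limma adjusted p = 0.022). That call was lost without KO replicate 1 (0.63, adjusted p = 0.11), without WT replicate 3 (0.59, adjusted p = 0.10) and after quantile normalization (0.59, adjusted p = 0.088). Neither gene was called when only the cTEC libraries were fitted (adjusted p = 0.22 for Cyp17a1 and 0.31 for Slc5a5).

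Aire, Cd80 and Fezf2 were higher in every KO than in every WT cTEC library. Across replicates their order matched that of Slc5a5 and Cyp17a1 only in part. From KO replicate 2 to 3 both genes rose while these markers fell. Over WT replicates 1 to 3 Slc5a5 fell, while Cyp17a1, Aire and Cd80 rose. KO cTEC replicate 1, the highest library for both genes, also had the highest Aire (95.6 RPKM) and Cd80 (21.3 RPKM) of the cTEC libraries. Cd80 was at 6.15 to 21.3 RPKM in KO cTEC and 1.50 to 5.76 RPKM in WT cTEC, and Fezf2, a transcription factor of medullary cells, at 13.4 to 31.9 RPKM in KO cTEC and 4.35 to 7.02 RPKM in WT cTEC. The 9 dendritic cell and macrophage markers summed to 110 to 154 RPKM in KO cTEC and 25.6 to 63.6 RPKM in WT cTEC. The 6 B cell markers summed to 13.7 to 42.4 RPKM in KO cTEC and 5.36 to 11.9 RPKM in WT cTEC. Limma called 2 of the 9 and 1 of the 6 higher, and none lower. Lyz2 led the first sum (mean 119 RPKM in KO, 38.0 RPKM in WT). Cd79b (14.9 RPKM in KO, 2.79 RPKM in WT) and Igj (11.1 RPKM in KO, 6.28 RPKM in WT) led the second. Xcr1 and Cd79a averaged less in KO cTEC than in WT cTEC. The 7 fibroblast markers, led by Dcn, summed to 188 to 422 RPKM in KO cTEC and 401 to 461 RPKM in WT cTEC. Of these, 3 were called lower and 1 higher. The 10 thymocyte markers summed to 36.5 to 53.8 RPKM in KO cTEC and 48.1 to 109 RPKM in WT cTEC, with 1 called lower. The 5 endothelial markers summed to 5.60 to 13.0 RPKM in KO cTEC and 1.74 to 4.70 RPKM in WT cTEC. The higher sum in KO came from Tek alone (mean 6.73 RPKM in KO cTEC, 0.961 RPKM in WT cTEC). Pecam1, Cdh5, Kdr and Emcn each averaged less in KO cTEC than in WT cTEC. The part of other cell types in the Slc5a5 and Cyp17a1 differences was not tested.

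**Figure D2:**
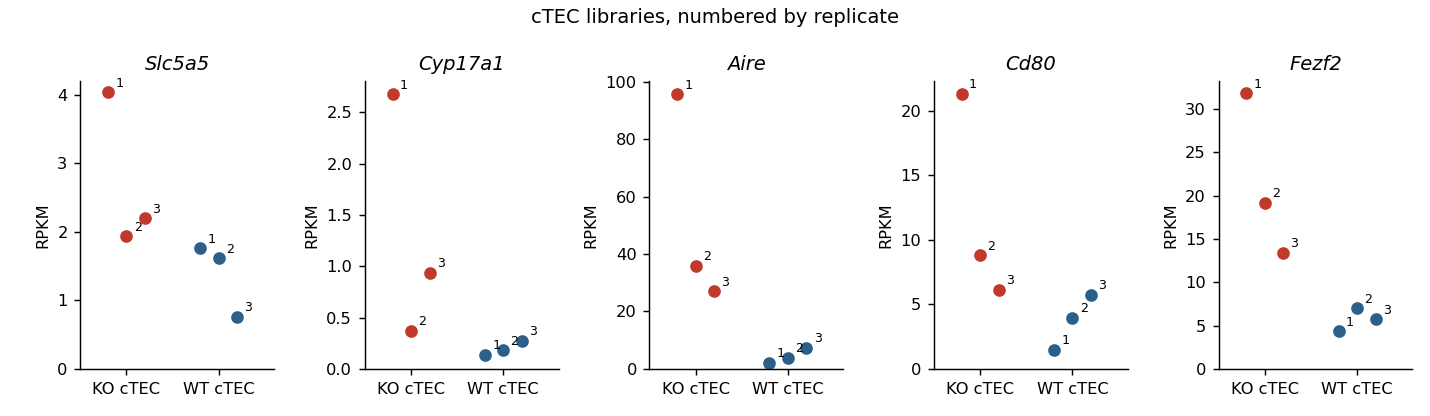
RPKM in each cTEC library, numbered by replicate, for Slc5a5, Cyp17a1, Aire, Cd80 and Fezf2. Linear axes start at 0. KO replicate 1 was the highest library in all 5 panels (4.03 RPKM for Slc5a5, 95.6 RPKM for Aire).

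The other 6 genes were low in cTEC and not called between genotypes. Tg had 0.184, 0.125 and 0.041 RPKM in KO cTEC, against 0.052, 0.068 and 0.098 RPKM in WT cTEC. Iyd had 0.362, 0.017 and 0.113 RPKM in KO cTEC, against 0.023, 0 and 0.110 RPKM in WT cTEC. Both pairs of groups overlapped. Cyp11a1 reached 0.292 RPKM in KO cTEC and 0.122 RPKM in WT cTEC, Tshr and Cyp21a1 stayed under 0.1 RPKM in both, and Cyp11b1 was listed at 0 in all 6 cTEC libraries.

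The genotype difference was itself compared between populations. That in mTEChi was lower than that in mTEClo for Tshr, Iyd, Cyp11a1, Cyp11b1 and Cyp21a1 (5 of 8, beside 40.9% of all genes lower and 6.01% higher, or 18.3% and 23.4% after quantile normalization). After quantile normalization Tshr (-0.36, limma adjusted p = 0.35) and Cyp21a1 (-0.41, adjusted p = 0.36) were not called. In WT mTEClo, Tshr, Cyp11b1 and Cyp21a1 averaged less than the added 0.1 RPKM, so a fall in KO there could hardly be measured. For Slc5a5 the difference between the mTEChi and mTEClo effects was 0.36 (95% interval -0.45 to 1.17, limma adjusted p = 0.47), and it was called after quantile normalization (1.52, adjusted p = 0.0023). For Cyp17a1 it was -1.16 (-2.49 to 0.17, adjusted p = 0.14), and it was called when only the libraries of these groups were fitted (adjusted p = 0.0078). For Tg it was -0.18 (-0.89 to 0.53, adjusted p = 0.69), with the opposite sign after quantile normalization (0.72) and with 0.01 RPKM added (0.34), and it was called with 1 RPKM added (-0.35, adjusted p = 0.007). Set against cTEC, the mTEChi effect was lower for the same 5 genes and for Tg (6 of 8, beside 44.8% lower and 5.13% higher, or 20.3% and 27.5% after quantile normalization, when Tg was 0.33 and Tshr -0.11, neither called). There, Cyp17a1 gave -1.53 (adjusted p = 0.054, and 0.0019 to 0.05 without KO cTEC replicate 2, WT cTEC replicate 3 or WT mTEChi replicate 3). Slc5a5 gave 0.03 (adjusted p = 0.95), and 1.50 after quantile normalization (adjusted p = 0.0021).

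**Figure D3:**
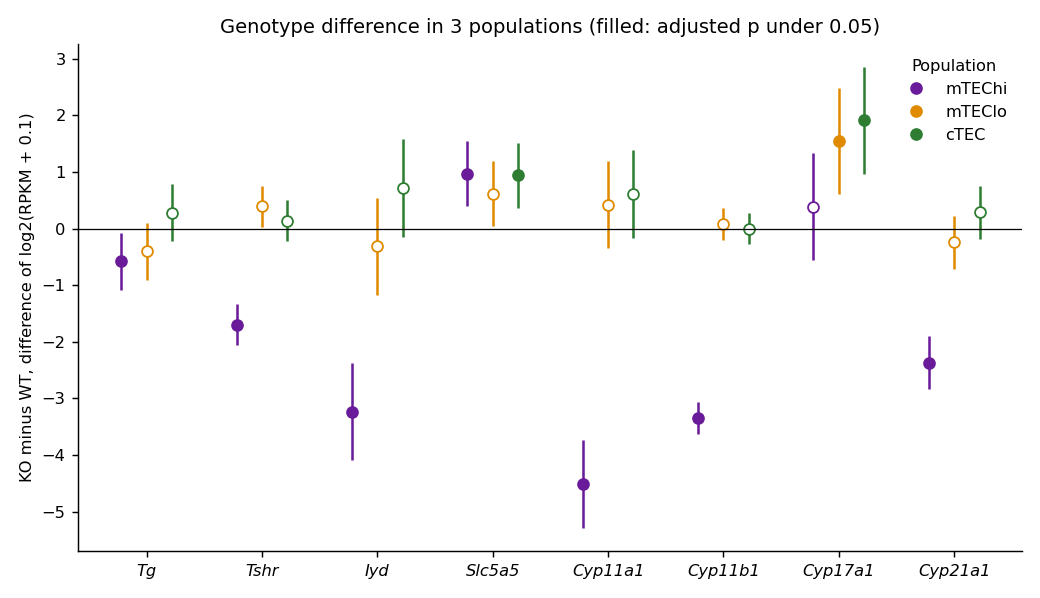
KO minus WT difference of log2(RPKM + 0.1) for each gene in mTEChi (purple), mTEClo (orange) and cTEC (green), with 95% intervals from limma over 3 libraries a group; filled points were called. Tshr, Iyd, Cyp11a1, Cyp11b1 and Cyp21a1 lie between -4.51 and -1.70 in mTEChi (Tshr at 0.09 after quantile normalization) and between -0.31 and 0.72 in the other populations, and Slc5a5 lies between 0.62 and 0.97 in all of them. In WT cTEC, Tshr, Iyd, Cyp11a1, Cyp11b1 and Cyp21a1 each averaged under 0.1 RPKM, so a fall in KO there could hardly be measured.

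The step between the lo and hi gates was then compared within each genotype. In KO, 4 genes were called higher in mTEChi than in mTEClo and 1 lower, beside 23.4% and 43.7% of all genes (29.3% and 33.7% after quantile normalization). In WT, 7 genes were called higher in mTEChi and none lower, beside 41.6% and 31.1% of all genes (29.6% and 39.3% after quantile normalization). Slc5a5 was the gene with no called step: its log2 difference was 0.00 in KO (adjusted p = 1) and -0.35 in WT (adjusted p = 0.25), and the WT step was called after quantile normalization (-1.13, adjusted p = 0.0006).

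Tg and Cyp17a1 had a large step in both genotypes. For Tg, mTEChi exceeded mTEClo by 3.67 in KO (SE 0.24, limma adjusted p = 1.1e-09) and by 3.85 in WT (adjusted p = 7e-10) on the log2 scale. For Cyp17a1 the steps were 3.29 in KO (SE 0.44, adjusted p = 6e-06) and 4.45 in WT (adjusted p = 1.9e-07). In these genes the hi gate stood above the lo gate with and without Aire. Iyd had a step of 1.57 in KO (adjusted p = 0.0027) and 4.49 in WT (adjusted p = 6e-08), and Tshr one of 0.57 in KO (adjusted p = 0.0077) and 2.66 in WT (adjusted p = 1.2e-09). The Tshr step in KO was lost with 0.01 or 1 RPKM added and after quantile normalization (adjusted p = 0.062 to 0.079).

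The remaining 3 steroid genes had no upward step in KO. Cyp11a1 was lower in the hi gate of KO mice (-1.02, SE 0.36, adjusted p = 0.02) and higher in that of WT mice (3.91, adjusted p = 8.5e-08). The KO value was not called with 0.01 RPKM added (adjusted p = 0.18), after quantile normalization (adjusted p = 0.063), or without KO mTEChi replicate 1 or 3 or KO mTEClo replicate 2 (adjusted p = 0.056 to 0.10). Cyp11b1 gave -0.01 in KO (adjusted p = 0.97) and 3.41 in WT (adjusted p = 5.4e-12), and Cyp21a1 gave 0.12 in KO (adjusted p = 0.67) and 2.24 in WT (adjusted p = 1.6e-07). The Cyp21a1 step in WT was 0.42 (adjusted p = 0.14) after quantile normalization.

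**Figure D4:**
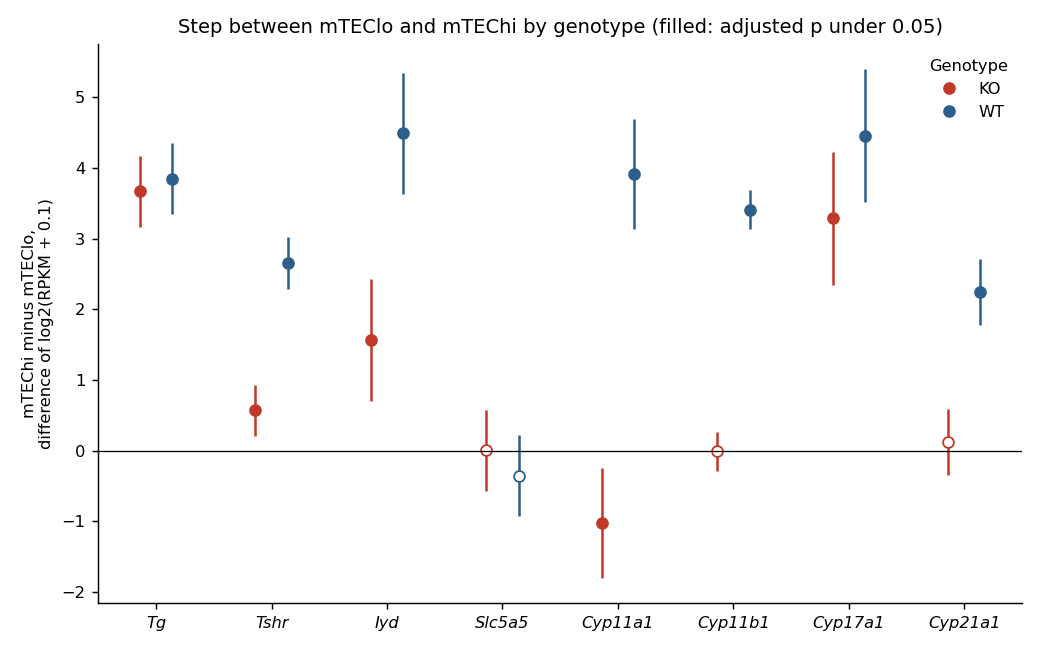
Difference of log2(RPKM + 0.1) between mTEChi and mTEClo for each gene, in KO (red) and WT (blue), with 95% intervals from limma over 3 libraries a group; filled points were called. The 2 genotypes lie side by side for Tg (3.67 in KO, 3.85 in WT) and apart for Cyp11a1 (-1.02 in KO, 3.91 in WT).

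Within WT, all 8 genes were called higher in mTEChi than in cTEC, beside 46.6% of all genes higher and 31.8% lower (32.6% and 42.8% after quantile normalization). The steps ran up to 6.15 for Cyp11a1 (adjusted p = 3e-10) and down to 0.77 for Slc5a5 (adjusted p = 0.016). The Slc5a5 value was -0.36 after quantile normalization (adjusted p = 0.19), and was not called without WT cTEC replicate 3 (0.42, adjusted p = 0.11) or WT mTEChi replicate 2 (0.70, adjusted p = 0.053). The Cyp21a1 value was 0.49 after quantile normalization (adjusted p = 0.079). WT mTEClo was above WT cTEC for Iyd (1.04, adjusted p = 0.048), Slc5a5 (1.12, adjusted p = 0.003) and Cyp11a1 (2.24, adjusted p = 0.00012), beside 24.6% of all genes higher and 18.2% lower (20.2% and 24.2% after quantile normalization). The Iyd call did not hold when WT cTEC replicate 1 or 2 or WT mTEClo replicate 2 or 3 was left out (adjusted p = 0.12 to 0.17). It was also lost with 1 RPKM added (0.18, limma adjusted p = 0.17) and after quantile normalization (0.79, adjusted p = 0.082). Without the trend in limma, without the filter on low values or after rescaling to the same sum, adjusted p was 0.052 to 0.073.

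The order of the groups by mean level differed between genes. WT mTEChi stood first, apart from the next group, for Tg, Tshr, Iyd, Cyp11a1, Cyp11b1 and Cyp21a1. KO mTEChi came next, again without overlap with the group below it, for Tg, Tshr and Iyd, whereas for Cyp11a1 it overlapped WT mTEClo above it and KO cTEC below it. For Cyp11b1 and Cyp21a1 the 5 lower groups could not be ordered beyond their spread. Slc5a5 was highest in KO mTEChi and KO mTEClo, which overlapped, and lowest in WT cTEC, with 1.38 ± 0.541 RPKM (SD, n = 3). Cyp17a1 was highest in KO mTEChi, then WT mTEChi, KO cTEC, KO mTEClo, WT cTEC and WT mTEClo, and of these neighbours KO cTEC and KO mTEClo overlapped, as did WT cTEC and WT mTEClo.

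Other genes of both pathways were mostly lower in KO mTEChi, though after quantile normalization the median of the thyroid list changed sign. Of 14 other thyroid genes, all tested, 10 were called lower and none higher in KO mTEChi (52.8% and 9.57% of all genes), with a median log2 difference of -1.21 beside -0.39 over all genes. After quantile normalization 5 were called lower and 3 higher, Duoxa1 and Foxe1 among them, with a median of 0.31. Pax8, a transcription factor of the follicular cell, averaged 0.032 RPKM in KO mTEChi and 2.11 RPKM in WT mTEChi (log2 difference -4.06, limma adjusted p = 4.5e-11). The anion transporter Slc26a7 (-2.68, adjusted p = 4.4e-08), the thyroid and lung factor Nkx2-1 (-2.47, adjusted p = 1.2e-07) and the activating deiodinase Dio2 (-2.57, adjusted p = 1.1e-06) also fell. The highest thyroid genes that were not called were the deiodinase Dio1 (176 RPKM in KO, 139 RPKM in WT; 0.34, adjusted p = 0.17), the oxidase maturation factor Duoxa1 (0.30, adjusted p = 0.09) and pendrin, Slc26a4 (-0.17, adjusted p = 0.61).

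Of 24 other steroid genes, 21 were tested, and 18 of these were called lower and none higher in KO mTEChi, with a median of -1.66 beside -0.39 over all genes. Of all genes in this comparison, 52.8% were called lower and 9.57% higher. After quantile normalization 11 of the 21 were called lower and 1, Fdxr, higher, with a median of -0.49, beside 24.7% and 31.2% of all genes. Hsd17b3, which makes testosterone in the testis, averaged 0.0017 RPKM in KO mTEChi and 3.70 RPKM in WT mTEChi (adjusted p = 2.6e-13). Hsd3b1, an enzyme that acts after Cyp11a1, was listed at 0 in all KO mTEChi libraries and averaged 1.26 RPKM in WT mTEChi (adjusted p = 1.4e-12). Akr1c18, which inactivates progesterone, averaged 0.204 RPKM in KO mTEChi and 14.1 RPKM in WT mTEChi (-5.57, adjusted p = 5e-10), and Hsd3b6, of the same family as Hsd3b1, averaged 0.134 RPKM in KO mTEChi and 3.25 RPKM in WT mTEChi (-3.91, adjusted p = 6.9e-10). The electron carriers Fdx1 (-0.17, limma adjusted p = 0.22) and Fdxr (0.23, adjusted p = 0.16) and the inhibin subunit Inha (-0.23, adjusted p = 0.096) were not called. Hsd3b2, Mc2r and Fshr were too low to test.

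In mTEClo, 3 of the 14 thyroid genes and 3 of the 21 tested steroid genes were called, beside 7.93% of all genes higher and 8.04% lower. Foxe1 (1.33, adjusted p = 0.01) and Duox1 (0.66, adjusted p = 0.025) of the thyroid list were higher in KO and Pax8 (-0.60, adjusted p = 0.04) lower, while Akr1b7 (1.61, adjusted p = 0.014) of the steroid list was higher and Nr5a1 (-1.29, adjusted p = 0.0059) and Srd5a1 (-0.59, adjusted p = 0.03) lower. Nr5a1 encodes the master regulator of steroid-producing cells. In mTEClo, Duox1, Pax8 and Srd5a1 were not called after quantile normalization (adjusted p = 0.066 to 0.13). In cTEC, 5 of the 14 thyroid genes were called, beside 13.3% of all genes higher and 6.76% lower. Dio1 (2.49, adjusted p = 1.6e-06), Foxe1 (1.70, adjusted p = 0.0013), Slc26a4 (1.55, adjusted p = 0.00075) and Duox1 (0.61, adjusted p = 0.029) were higher in KO and Slc26a7 (-1.65, adjusted p = 9.4e-05) lower, and Duox1 was not called after quantile normalization (0.20, adjusted p = 0.53). In cTEC none of the 21 tested genes of the other steroid list was called by limma (2 higher and 2 lower at an unadjusted p under 0.05). These genes were named because they were the ones called, after their values were seen.

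Neighbouring genes gave mixed values in KO against WT mTEChi, where 52.8% of all genes were called lower and 9.57% higher. Sla, a lymphocyte adaptor, lies inside Tg on the opposite strand, and averaged 1.99 RPKM in KO mTEChi and 3.37 RPKM in WT mTEChi (-0.72, adjusted p = 0.12). The annotation had no overlapping exons between Sla and Tg, so under that annotation the exon reads of the pair differ in position. Beside Slc5a5, Ccdc124 was not called (-0.17, adjusted p = 0.2). Beside Cyp11a1, neither Sema7a (0.30, adjusted p = 0.52) nor Ccdc33 (0.43, adjusted p = 0.2) was called. Beside Cyp17a1, Wbp1l was higher (0.38, adjusted p = 0.00017) and 2010012O05Rik not called (0.28, adjusted p = 0.067). On both sides of Cyp11b1 and Cyp21a1 the neighbours were called lower in KO mTEChi, as most genes were (median log2 difference -0.39). Beside Cyp11b1 these were Hemt1 (-1.55, limma adjusted p = 8e-07) and Cyp11b2, which was not called after quantile normalization (-0.42, adjusted p = 0.051). Those beside Cyp21a1 were C4b (-2.98, limma adjusted p = 4e-09) and C4a (-0.54, adjusted p = 0.029).

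Genes with the most similar pattern over the 18 libraries were ranked by Pearson's r of log2(RPKM + 0.1) among 14647 candidates. The libraries share group and depth, so r is a description only. For Tg the closest was Wscd2 (r = 0.992), for Tshr Esrrb (r = 0.981), for Iyd Gabbr2 (r = 0.986), for Cyp11a1 Acoxl (r = 0.980) and for Cyp11b1 Psg21 (r = 0.998). Partners were chosen over these same libraries, so their mTEChi levels are no separate evidence. For these 5 genes the partner averaged less in KO mTEChi than in WT mTEChi. Cyp11b1 was near 0 outside WT mTEChi, so a gene confined to that group gives it a high r. For Cyp17a1 it was Ostn (r = 0.980), with 9.40 RPKM in KO mTEChi and 5.62 RPKM in WT mTEChi. Slc5a5 had the weakest best match, Tmed8 (r = 0.922), with 19.5 RPKM in KO mTEChi and 13.6 RPKM in WT mTEChi. Cyp21a1 was too low to be ranked.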

How the data were processed

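RNA of 18 libraries (6 groups of 3) was sequenced by the authors. For each library the authors deposited a table of 23063 genes with an RPKM value and a signal, the number of bases aligned to the gene. Per the submitters' processing notes, mm10 and CASAVA 1.8.2 were used. Aligner and annotation: not given in the sources used here. The deposited RPKM were not rescaled. The 19451 genes that reached 0.1 RPKM in 3 or more libraries were modelled as log2(RPKM + 0.1) with limma 3.58.1 in R 4.3.3: 6 group means over all 18 libraries, eBayes with a trend, Benjamini-Hochberg adjustment over all tested genes, and a call under 0.05. The fit was tested on simulated data. Whole reads could not be recovered, so no test for read counts was run, and no counting interval is given. The members, the gene lists and the comparisons were chosen with earlier results of these data known.

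Named beyond the 8 genes are Aire, population markers, flanking genes and, from each of the lists of other thyroid and steroid genes, the 5 called genes of smallest adjusted p and the 3 highest genes that were not called in KO against WT mTEChi. Values of some of these genes are not reported here. Same-numbered libraries deviated from their group means with correlations of -0.30 to 0.17. All 3 pairs exceeded 0.1 in 1 of 7 comparisons, WT mTEClo against WT cTEC. No 2 libraries were identical. Alternatives were other added values, filters and scalings, no trend, a replicate block, fits of the compared groups alone and each library left out. Annotation was from GENCODE M21 and promoters from RefSeq.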

Additional observations from a re-analysis of the deposited data

Results flagged for a closer look

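The KO minus WT difference in mTEChi was set against that in another population by a contrast in the same limma fit, and the values below are differences of log2 differences with Benjamini-Hochberg adjusted p. They passed that test, which is why they are listed. All share the mTEChi libraries, so the values against cTEC and those against mTEClo are not separate pieces of evidence. Groups of 3 are too small for a test of single outlying libraries.

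Against cTEC, the mTEChi effect was lower for Cyp11a1 (-5.13, adjusted p = 7.9e-07), Iyd (-3.95, adjusted p = 3.3e-05), Cyp11b1 (-3.34, adjusted p = 1.3e-09), Cyp21a1 (-2.65, adjusted p = 3.9e-06), Tshr (-1.84, adjusted p = 1.3e-05) and Tg (-0.86, adjusted p = 0.043). Against mTEClo it was lower for Cyp11a1 (-4.94, adjusted p = 1.4e-06), Cyp11b1 (-3.42, adjusted p = 1.4e-09), Iyd (-2.92, adjusted p = 0.00058), Cyp21a1 (-2.12, adjusted p = 4.1e-05) and Tshr (-2.09, adjusted p = 4.2e-06). Cyp11b1 and Cyp21a1 were at or near 0 outside WT mTEChi, so a KO value below the WT value could hardly be measured in the other populations. The same limit holds for Tshr, which averaged 0.008 RPKM in WT mTEClo and in WT cTEC. In WT cTEC, Tg (0.073 RPKM), Iyd (0.044 RPKM) and Cyp11a1 (0.079 RPKM) were also under the added 0.1 RPKM.

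The Tg value against cTEC was not called when any one of 8 of the 12 libraries was left out. The Tshr values were not called after quantile normalization (-0.11 against cTEC, adjusted p = 0.78; -0.36 against mTEClo, adjusted p = 0.35), nor was the Cyp21a1 value against mTEClo (-0.41, adjusted p = 0.36). The Iyd value against mTEClo was not called with 0.01 RPKM added (adjusted p = 0.066).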

How the results depend on the processing

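Over the members and comparisons, 580 of 621 values under another setting and 480 of 528 with a library left out kept their direction and their side of the threshold, and 4 of 710 values of called results changed sign, all after quantile normalization. A filter of 1 RPKM in 3 libraries leaves the lowest genes untested, and the number called was then 4 in place of 7 for KO minus WT in mTEChi, 3 in place of 6 and 2 in place of 5 for the mTEChi effect against cTEC and mTEClo, 5 in place of 8 for WT mTEChi minus cTEC and 4 in place of 7 for WT mTEChi minus mTEClo. For KO minus WT in cTEC, 0 in place of 2 were called by limma from the cTEC libraries alone (1 at an unadjusted p under 0.05; 18 of all genes in place of 3908), 1 after quantile normalization, and 1 to 3 with a library left out. For KO minus WT in mTEClo, 2 in place of 1 were called from the mTEClo libraries alone, 0 with 1 RPKM added (1 at an unadjusted p under 0.05) and 0 to 1 with a library left out (1480 to 2984 of all genes in place of 3105). For KO mTEChi minus mTEClo, 3 in place of 5 were called with 0.01 RPKM added and 3 after quantile normalization.

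After quantile normalization the sign changed for KO minus WT in mTEChi of Tg (0.36) and Tshr (0.093), for the mTEChi effect of Tg against cTEC (0.33) and mTEClo (0.72), for WT mTEChi minus cTEC of Slc5a5 (-0.36) and for WT mTEClo minus cTEC of Tg (-0.22), Tshr (-0.15) and Cyp11b1 (-0.030). The effect of Tg against mTEClo was 0.34 with 0.01 RPKM added. With a library left out, values that were not called crossed 0: Cyp11b1 KO minus WT in mTEClo (-0.0089 to 0.12), the Slc5a5 effect in mTEChi against cTEC (-0.17 to 0.38), KO mTEChi minus mTEClo of Cyp11b1 (-0.086 to 0.077) and Slc5a5 (-0.033 to 0.044), and WT mTEClo minus cTEC of Tshr (-0.058 to 0.11). The cause was not tested. The replicate block left the number called as it was, at 7 for mTEChi, 1 for mTEClo and 2 for cTEC, and changed no call.

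The lowest values set the limits: Tshr, Cyp11b1 and Cyp21a1 were under 0.1 RPKM in most groups, where the added 0.1 RPKM sets the size of a log2 difference. The spread between libraries is known from 3 per group only. Values are per gene, so transcripts and alleles were not compared. Depth ran from 4.54 to 18.1 Gb, with both extremes in WT mTEClo.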
